A study of Ambystoma mexicanum with 49 samples.

Results

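Proteasome genes were taken as all genes whose symbol begins with PSM, then a letter from A to G, then a digit, which gave 46 of the 15631 genes in each table of axolotl embryos. By their known roles in other vertebrates they comprised 6 alpha and 7 beta subunits of the standard core particle, the alternative alpha subunit PSMA8, the immune and thymus beta subunits PSMB8 and PSMB11, 6 ATPases and 11 other subunits of the regulatory particle, 7 assembly chaperones, 4 activators and the inhibitor PSMF1. PSMC3IP also fits the rule; it is no proteasome subunit but a cofactor of meiotic recombination, and it is described apart. None of the genes carried the symbol PSMA3, PSMB9 or PSMB10, so the sums of the standard core particle below lack PSMA3. Subunits without a PSM name, such as SHFM1 and ADRM1, fall outside the rule, so the sums of the regulatory particle lack them. A symbol of the RefSeq table used here matched 45 of the 46 names.

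The proteasome degrades proteins that carry ubiquitin chains. Its barrel-shaped core particle consists of alpha rings, which form the gate, around beta rings, which hold the catalytic sites, and the regulatory particle that caps the barrel binds ubiquitin, removes it, and unfolds the substrate with a ring of ATPases. In an egg and early embryo it removes maternal proteins and the cell-cycle regulators whose loss drives each division.

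The study measured the transcriptome of the axolotl, Ambystoma mexicanum, a salamander, from stage 1 to stage 40, and its title refers to times of upheaval and of stability. Single embryos, freed of their jelly and kept at 20 °C until collected, were preserved in RNAlater and homogenized whole, and poly(A) RNA was sequenced from 49 of them at 17 stages (1 to 12, 14, 16, 19, 24 and 40). There were 2 embryos at stages 1 and 11 and 3 at every other stage. Total RNA depleted of ribosomal RNA was also sequenced, in 2 libraries of stage 1 and 3 of stage 2. The labels name no genotype, strain or treatment, and the sources used here do not give the clutch of each embryo. Depth was 12048056 to 44855465 estimated counts per poly(A) library and 17363126 to 25502286 per total RNA library. Levels are given in TPM, the share of a transcript among all transcripts of a library after allowing for length, as mean ± SD over libraries. Log2 fold changes are given ± SE and come from counts scaled by TMM, a scaling that assumes that most genes do not change, so they can differ from the ratio of TPM. Summed TPM of the 5 egg and oocyte markers fell from 4194 to 4592 in the stage 1 libraries to 2.69 to 3.15 at stage 40, those of the 4 gastrula markers ranged from 1175 to 1659 at stage 12, and those of the 6 late tissue markers from 27738 to 32824 at stage 40. The late tissue markers also summed to 109 and 228 TPM in the stage 1 libraries, against 7.45 to 25.2 at stage 2, and their part in the stage 1 values was not tested.

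The 46 members together held 7555 to 10767 TPM in their stage means, and most of them varied less than the median gene. Over the 44 members with a mean of at least 1 TPM at every stage, the highest stage mean was a median of 2.81 times the lowest, against 7.21 times over 8728 genes treated alike, and 40 of the 44 lay below that all-gene median. The 8728 genes were not matched to the members on level. The least variable was PSMD7, a lid subunit, at 226 to 305 TPM, and the most variable were PSMA8 and the chaperone PSMD10. Of the 46 members, 10 were highest at stage 1, 7 at stage 24 and 9 at stage 40. In the map of levels by stage, 8 of the 13 standard core subunits had their lowest mean at stage 7, in late cleavage, and 10 had their highest at stage 16 or later, while PSMA2, PSMB3 and PSMB6 were highest at stage 1. All 7 chaperones and 3 of the 4 activators had their highest mean at stage 9 or before. These counts rest on TPM without the TMM factor. The share of all genes with their highest or lowest mean at these stages is not given here. The counts therefore cannot be read as a trait of the members or of a role.

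**Figure D1:**
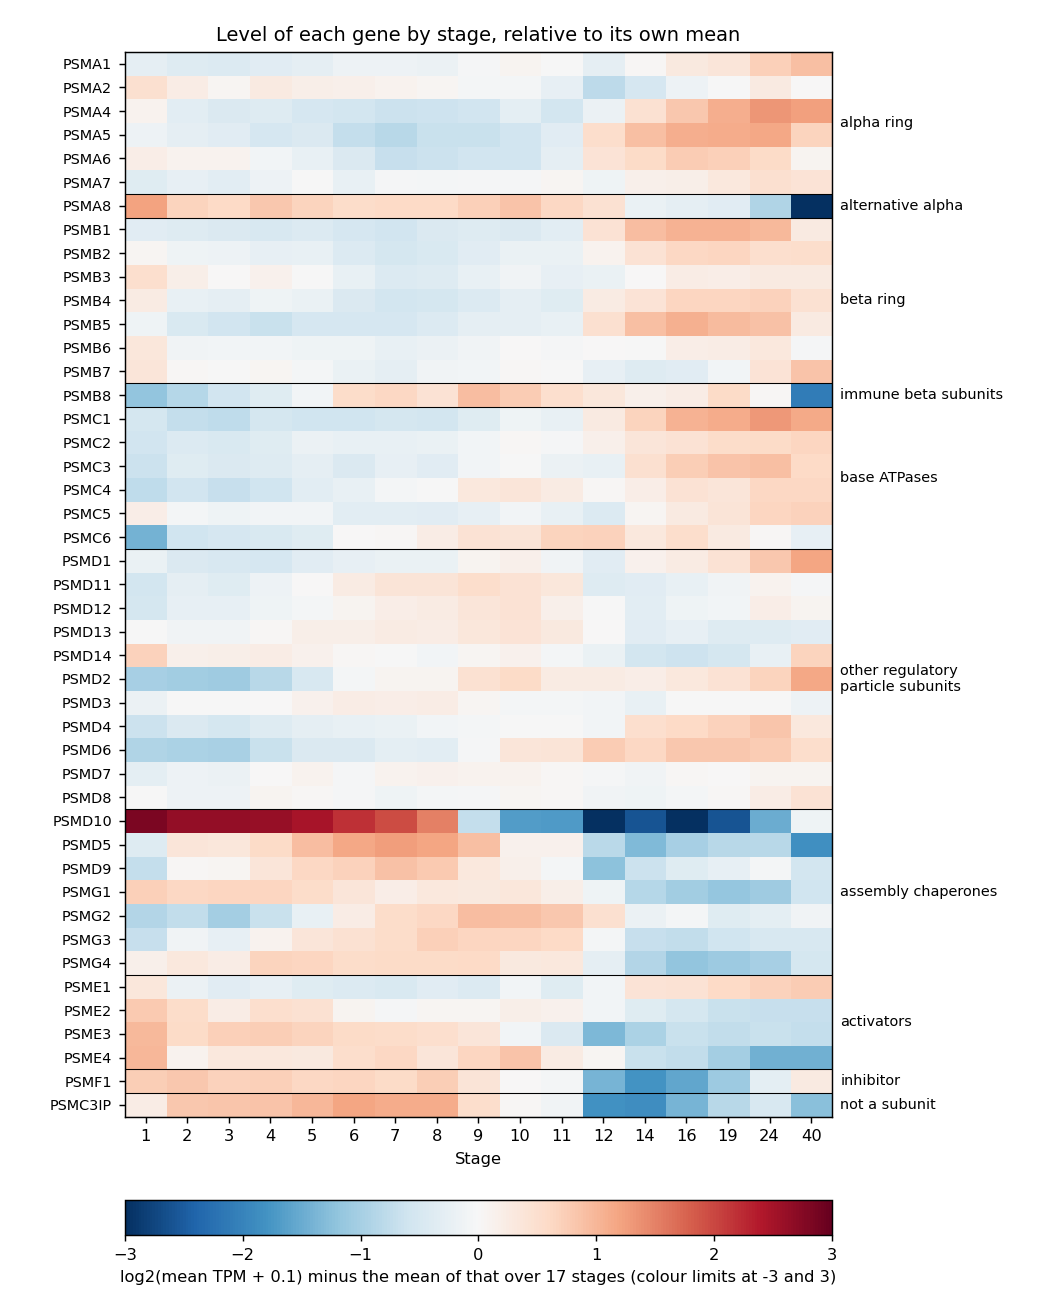
Level of 45 proteasome genes by stage, as log2(mean TPM + 0.1) minus the mean of that value over the 17 stages, with rows grouped by role and colours limited at -3 and 3. PSMD10 runs from 561 TPM at stage 1 to 2.66 TPM at stage 12, and PSMA8 from 307 TPM at stage 1 to 1.2 TPM at stage 40.

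Successive stages were compared in 9 steps. Each used edgeR's quasi-likelihood test, with p-values adjusted by the Benjamini-Hochberg method over all 14437 genes tested and called at an adjusted p below 0.05. PSMB11 had too few counts to test, which left 45 members. With libraries scaled by TMM, 30 members were called higher and 5 lower from stage 10 to 12, in gastrulation, where 20.3% of all tested genes were called higher and 24.3% lower. With library size alone this step had 7 higher and 24 lower, where 1100 of the 14437 genes were called higher and 8637 lower. From stage 12 to 14, 25 were called higher and 2 lower, against 27.4% and 24.9% of all genes. From stage 24 to 40 the order turned, with 2 members called higher and 22 lower, against 37.7% and 30.9%. The median log2 change of the members in these steps was 0.48, 0.32 and -0.29, and that of all tested genes 0, 0 and 0.12.

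From stage 2 to 8, across cleavage, 6 members were called higher and 22 lower, against 24.9% and 18.9% of all genes, with a median of -0.22 against 0.04. From stage 1 to 2 the counts were 7 higher and 9 lower, against 21.6% and 11.1%. Without stage 1 replicate 1 these became 2 and 2, without stage 1 replicate 2 they became 3 and 5, and without stage 2 replicate 3 they became 3 and 2. Without stage 2 replicate 1 or replicate 2 the 6 higher from stage 2 to 8 became 3. From stage 8 to 9 there was 1 member higher and 3 lower, against 4.02% and 11.8%. From stage 9 to 10 there was 1 higher and 0 lower, against 1.83% and 1.89%. In that step 3 members were lower at an unadjusted p under 0.05, and the DESeq2 Wald test called 1 lower. The share of all genes lower by these measures is not given here, in this step or from stage 14 to 19. From stage 14 to 19 there were 5 higher and 0 lower, against 6.73% and 11% (2 lower at an unadjusted p under 0.05, and 0 by the DESeq2 Wald test), and from stage 19 to 24 there were 2 higher and 2 lower, against 11% and 13.1%. In the steps with few calls the counts changed when 1 library was left out, and the cause was not tested. The member higher from stage 8 to 9, PSMC4, was not called without stage 8 replicate 2 or 3 or stage 9 replicate 1 or 3. The 3 lower there became 1 without stage 8 replicate 3 or stage 9 replicate 2 or 3. From stage 14 to 19 the 5 higher became 3 without stage 14 replicate 2 or stage 19 replicate 3, and the 0 lower became 1 without stage 14 replicate 3. From stage 19 to 24 the 2 higher became 0 without stage 19 replicate 2 or stage 24 replicate 3, and the 2 lower became 1 without stage 19 replicate 2 or 3 or stage 24 replicate 2 or 3.

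These counts depend on how libraries are put on 1 scale, on which the TMM factors of 0.559 to 1.41 act. With library size alone the median of all tested genes from stage 10 to 12 became -0.83 on the log2 scale. In that setting 7 members were called higher and 24 lower, beside 1100 and 8637 of all 14437 tested genes. With library size alone the counts also became 12 higher and 8 lower from stage 2 to 8 (all-gene median 0.32), 16 and 10 from stage 12 to 14 (-0.23), and 11 and 9 from stage 24 to 40 (0.54), and the all-gene median from stage 19 to 24 was 0.16. Of all tested genes, 4808 were then higher and 1178 lower from stage 2 to 8. The numbers were 3030 and 4951 from stage 12 to 14, and 6842 and 2775 from stage 24 to 40. With TMM itself the all-gene median was within 0.04 of 0 in the poly(A) steps other than stage 24 to 40, where it was 0.12, and with DESeq2 size factors it passed 0.1 from stage 12 to 14 (0.11) and from stage 24 to 40 (0.17). A change of scaling shifts all genes of a step by nearly the same amount. The place of the members among all genes therefore hardly depends on the scaling and cannot test it. From stage 10 to 12, 37 of 45 members lay above the all-gene median under TMM, DESeq2 size factors and library size alone, and from stage 24 to 40 it was 8 of 45 under each. From stage 2 to 8 it was 11 of 45 under each of the 3 scalings. Unless stated, the changes described below passed the test in 1 direction under all 3 scalings, which held for 7 members higher and 5 lower from stage 10 to 12, against 7.62% and 24.3% of all genes. It held for 16 higher and 0 lower from stage 12 to 14 (21% and 18.1%), for 2 higher and 9 lower from stage 24 to 40 (37.7% and 19.2%), for 2 higher and 8 lower from stage 2 to 8 (20.6% and 8.16%), and for 2 higher and 8 lower from stage 1 to 2 (17.6% and 10.9%).

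**Figure D2:**
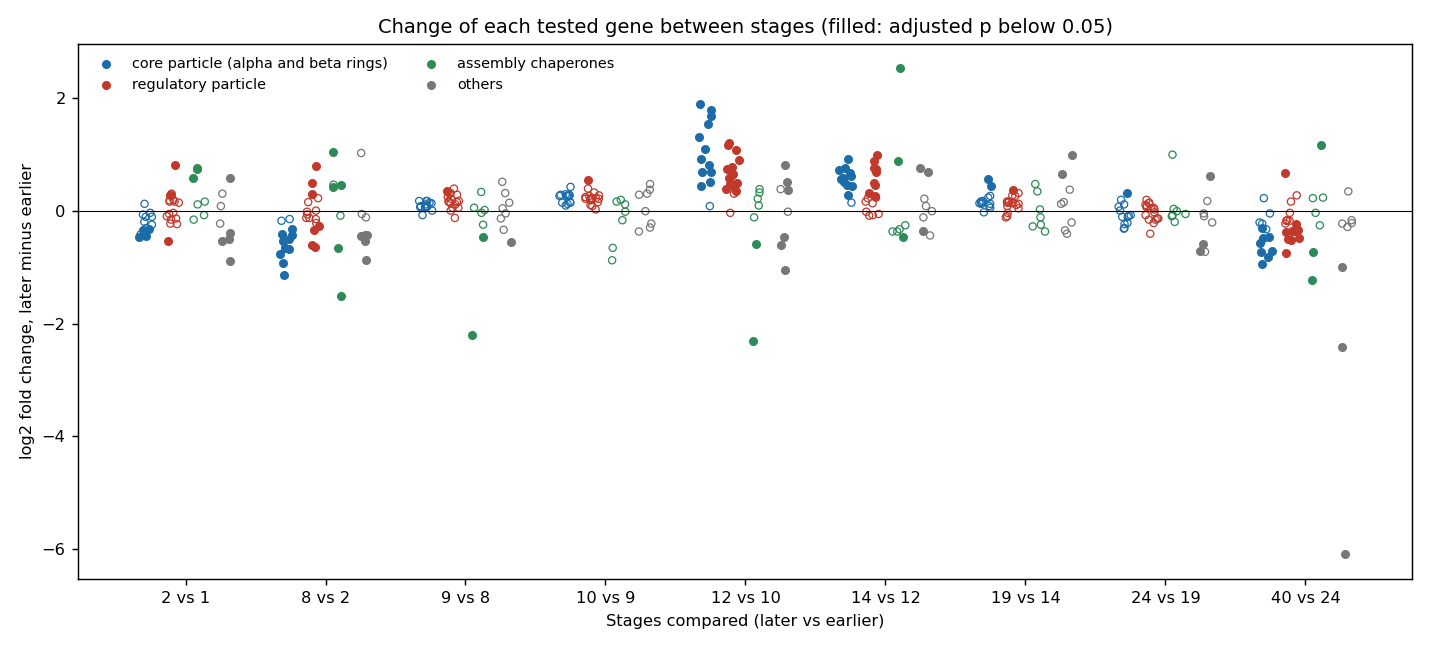
Log2 fold change of each of the 45 tested members in the 9 steps from the earlier to the later stage, with TMM scaling; filled points passed an adjusted p of 0.05 in the edgeR quasi-likelihood test. Core and regulatory subunits lie mostly above 0 from stage 10 to 14, which for most of them turns with library size alone from stage 10 to 12, while PSMD10 lies at -2.31 and then 2.52, and PSMA8 stands at -6.09 from stage 24 to 40.

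The summed level of the 13 standard core subunits was lower in cleavage than in the egg and highest in TPM at stage 24. It was 4117 ± 15 TPM at stage 1 (n = 2), 2771 ± 52.8 at stage 7, 3222 ± 46.3 at stage 10, 4307 ± 216 at stage 12, 6221 ± 141 at stage 24 and 5254 ± 207 at stage 40 (n = 3 each). The 3 libraries of stage 12, at 4093 to 4525 TPM, lay above the 3171 to 3261 TPM of stage 10 without overlap. The 17 regulatory particle subunits followed another course, from 2396 ± 25.5 TPM at stage 1 (n = 2) to 3279 ± 64.9 at stage 10, 2904 ± 50.9 at stage 12 and 3962 ± 113 at stage 40 (n = 3 each). In TPM the regulatory particle thus summed lower at stage 12 than at stage 10, with no overlap (2866 to 2962 against 3215 to 3345), where the core particle summed higher. Divided by the TMM factor, both sums were higher at stage 12, at 6190.3 against 2557 for the core and 4166 against 2602 for the regulatory particle. Embryos were homogenized whole, so that a change in the number of cells of one type and a change in RNA per cell cannot be told apart.

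**Figure D3:**
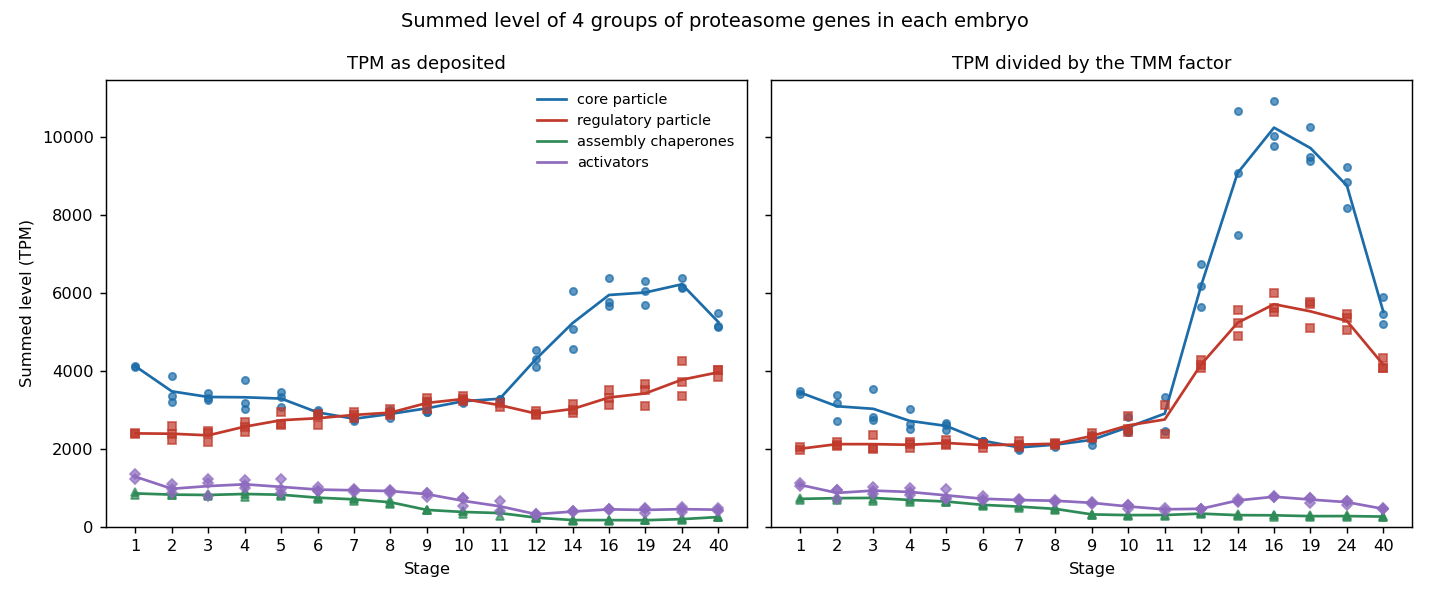
Summed level in each poly(A) library (points) and stage means (lines) of the 13 core subunits, 17 regulatory particle subunits, 7 assembly chaperones and 4 activators, in TPM as deposited (left) and divided by the library's TMM factor (right). On the left the core and regulatory sums lie close together from stage 6, at 2935 and 2785 TPM, to stage 10, and the core sum is at 6221 TPM at stage 24; the chaperone sum goes from 856 TPM at stage 1 to 169 TPM at stage 19.

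Within the core particle the levels of subunits that are built into the barrel in equal numbers were far apart. At stage 1 the lowest was PSMB1 at 54.7 TPM and the highest PSMA5 at 644 TPM, a ratio of 11.8, and at stage 24 the same pair stood at 135 and 1601 TPM, a ratio of 11.8. PSMA5 was the highest core subunit at all 17 stages, with 15.6 ± 1.02% of the core sum at stage 1 (n = 2) and 25.7 ± 0.339% at stage 24 (n = 3). Among the regulatory particle subunits with a PSM name, PSMD8, a lid subunit, was highest at all 17 stages. It ran from 383 TPM at stage 3 to 571 TPM at stage 40, and PSMC1 or PSMD12 was lowest. The lid subunit SHFM1, which the rule leaves out, was above PSMD8 at stage 12, as its level given further below shows. TPM allow for length only as far as the authors' transcript models hold, and their part in these ratios was not tested.

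Among the alpha subunits, which form the outer rings and the gate, PSMA5 and PSMA6 changed together. PSMA5 read 675 and 612 TPM in the stage 1 libraries, 464, 489 and 396 at stage 8, 479.8, 466 and 492 at stage 10, and 1080.4, 954 and 1039 at stage 12. Stages 10 and 12 did not overlap, and the change was 1.89 ± 0.16 on the log2 scale (3.7-fold, edgeR quasi-likelihood adjusted p = 7.99e-12). With library size alone it was 1.03. PSMA6 read 228, 229.9 and 232 TPM at stage 10 and 531, 411 and 423 at stage 12, again without overlap, a change of 1.78 ± 0.16 (3.44-fold, edgeR quasi-likelihood adjusted p = 1.52e-11). These had also been the alpha subunits that fell in cleavage under every scaling, PSMA6 by 1.14 ± 0.16 (2.2-fold, edgeR quasi-likelihood adjusted p = 8.79e-07) and PSMA5 by 0.77 ± 0.16 (1.7-fold, adjusted p = 0.000214 in the same test) from stage 2 to 8. At stage 40 they were lower again, PSMA5 at 1079.9, 1097 and 1230.4 TPM against 1575, 1605 and 1622 at stage 24, a fall of 0.73 ± 0.16 (1.66-fold, edgeR quasi-likelihood adjusted p = 0.000129).

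Of the other alpha subunits, PSMA1 and PSMA2 shared neither their highest nor their lowest stage with PSMA5 or PSMA6. PSMA7 was lowest at stage 1, at 251 TPM, and highest at stage 24, at 452 TPM. PSMA1 stayed between 95.2 and 134 TPM in its stage means to stage 14 and was highest at stage 40, at 237 TPM. PSMA2 was highest at stage 1, at 189.9 TPM, and lowest at stage 12, at 79.1 TPM. It rose from stage 14 to 19 by 0.43 ± 0.1 (1.35-fold, edgeR quasi-likelihood adjusted p = 0.00367), from 90.7 to 103 TPM to 121 to 143 TPM. PSMA4 had its lowest and highest stages in common with PSMA5, at stage means of 49.5 TPM at stage 7 and 193 TPM at stage 24. From stage 12 to 14 it rose by 0.92 ± 0.17 (1.89-fold, edgeR quasi-likelihood adjusted p = 1.46e-05). From stage 12 to 14, 6 of the 6 alpha subunits were called higher, against 27.4% of all tested genes. Under all 3 scalings it was 4 of them, against 21% of all tested genes.

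PSMA8 replaces PSMA7 in core particles of the mammalian testis, where it serves meiosis. In the poly(A) libraries of stage 1 it was above PSMA7: PSMA8 read 308 and 307 TPM and PSMA7 242 and 260.5 TPM. In total RNA of stage 1 the order was the opposite, with PSMA8 at 105 and 90.1 TPM and PSMA7 at 224 and 233. The values that follow are from poly(A) RNA. PSMA8 then stood at 203, 242 and 191 TPM at stage 2, 258, 229.6 and 236 at stage 10, 119, 117 and 111 at stage 14, 84.1, 70.7 and 58.2 at stage 24, and 1.61, 0.835 and 1.16 at stage 40. PSMA7 read 441, 411 and 435 TPM at stage 40. The share of PSMA8 in the sum of both was 55 ± 1.38% at stage 1 (n = 2), 38.2 ± 0.642% at stage 12, 13.6 ± 2.49% at stage 24 and 0.278 ± 0.081% at stage 40 (n = 3 each). From stage 1 to 2 PSMA8 fell by 0.53 ± 0.16 (1.44-fold, edgeR quasi-likelihood adjusted p = 0.00933). That call was lost without stage 2 replicate 3 (-0.41) and with only the 2 stages in the fit (-0.6). Without stage 1 replicate 1 the change was -0.51. PSMA8 fell by 0.71 ± 0.15 from stage 19 to 24 (1.63-fold, edgeR quasi-likelihood adjusted p = 0.000539) and by 6.09 ± 0.2 from stage 24 to 40 (68.1-fold, edgeR quasi-likelihood adjusted p = 6.22e-24). From stage 10 to 12 its direction depended on the scale, at 0.37 ± 0.14 with TMM (1.29-fold, edgeR quasi-likelihood adjusted p = 0.0339) and -0.48 with library size alone, both called, and the call with TMM was lost without stage 10 replicate 2 or 3 or any 1 of the stage 12 libraries (0.29 to 0.39). From stage 12 to 14 it was called lower with TMM by 0.37 ± 0.15 (1.29-fold, edgeR quasi-likelihood adjusted p = 0.031), which was lost with DESeq2 size factors (-0.21) and without stage 12 replicate 1 or 3 or stage 14 replicate 2 or 3 (-0.33 to -0.37).

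The summed levels of the 5 egg and oocyte markers and the 5 germ line markers went down over the same stages. The egg markers summed to 4393 TPM at stage 1, 723 at stage 12, 154 at stage 24 and 2.87 at stage 40. The germ line markers summed to 147 TPM at stage 1, 73 at stage 12, 31.4 at stage 24 and 1.82 at stage 40, with 1 of the 5 genes at 0 in all libraries of stages 1, 24 and 40. The part of such RNA in the course of PSMA8 was not tested. PSMA7 and PSMA8 are close paralogs, so that reads may be shared between them in the authors' counting and the value of each alone is uncertain.

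Of the beta subunits, PSMB5 carries the chymotrypsin-like site, PSMB6 the caspase-like site and PSMB7 the trypsin-like site, while PSMB1 to PSMB4 are structural. PSMB5 read 244, 260.3 and 264 TPM at stage 10, 437, 401 and 449 at stage 12, 614, 521 and 602 at stage 14, 574, 525 and 590.1 at stage 24, and 362, 351 and 399.8 at stage 40. It rose by 1.54 ± 0.11 from stage 10 to 12 (2.9-fold, edgeR quasi-likelihood adjusted p = 1.72e-13) and by 0.71 ± 0.11 to stage 14 (1.64-fold, edgeR quasi-likelihood adjusted p = 1.35e-06). It fell by 0.83 ± 0.11 from stage 24 to 40 (1.78-fold, edgeR quasi-likelihood adjusted p = 3.56e-08). In each of these steps the libraries did not overlap.

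PSMB1 followed the same path at a lower level, with 51.1, 46.7 and 54.7 TPM at stage 10, 95.1, 87 and 98.2 at stage 12, 142, 132 and 133 at stage 24, and 84.9, 79.6 and 84.9 at stage 40. Its changes were 1.67 ± 0.12 from stage 10 to 12 (3.18-fold, edgeR quasi-likelihood adjusted p = 1.17e-13), 0.76 ± 0.12 to stage 14 (1.69-fold, adjusted p = 1.3e-06 in the same test), and -0.94 ± 0.12 from stage 24 to 40 (1.92-fold, adjusted p = 1.03e-08). PSMB4 rose from stage 10 to 12 by 1.31 ± 0.15 (2.48-fold, edgeR quasi-likelihood adjusted p = 2.58e-09). All 7 beta subunits were called higher from stage 10 to 12 with TMM, against 20.3% of all tested genes. PSMB1, PSMB4 and PSMB5 were so under all 3 scalings, against 7.62% of all tested genes. PSMB3, PSMB6 and PSMB7 turned to -0.17, -0.06 and -0.35 with library size alone, where PSMB7 was called lower. PSMB7 moved apart from the other catalytic subunits. It read 154, 145 and 142 TPM at stage 14, 157, 189 and 194 at stage 19, 240.1, 226 and 296 at stage 24, and 347, 331 and 359 at stage 40, its highest stage. From stage 19 to 24 it rose by 0.32 ± 0.11 (1.25-fold, edgeR quasi-likelihood adjusted p = 0.0329), a call lost without any 1 of stage 19 replicate 1, stage 19 replicate 2 and stage 24 replicate 3 (0.25, 0.33 and 0.27 on the log2 scale).

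In cleavage, from stage 2 to 8, 7 of 7 beta subunits were called lower with TMM, against 18.9% of all genes. Only PSMB2 and PSMB3 were so under all 3 scalings, against 8.16% of all genes. In TPM the libraries of these stages did not overlap for PSMB2 and PSMB3 and overlapped for the other beta subunits. PSMB5 read 200.3, 241 and 237 TPM at stage 2 and 227, 235 and 229 at stage 8. PSMB3 went from a mean of 421 ± 71.6 TPM at stage 2 to 288 ± 31 at stage 8 (n = 3 each), a fall of 0.92 ± 0.12 (1.89-fold, edgeR quasi-likelihood adjusted p = 6.34e-07). From stage 1 to 2 PSMB4, PSMB5, PSMB6 and PSMB7 were called lower by 0.47, 0.32, 0.45 and 0.34 on the log2 scale, but each of the 4 calls was lost without stage 1 replicate 1 (-0.53, -0.23, -0.39 and -0.25).

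PSMB8, which takes the place of PSMB5 in immune cells and after interferon, ranged from 0.321 to 8.32 TPM over the 49 poly(A) libraries. Its share in the sum with PSMB5 was 0.626 ± 0.164% at stage 1 (n = 2), 2.96 ± 0.182% at stage 9, where it was highest, and 0.228 ± 0.168% at stage 40 (n = 3 each). In total RNA the share was 6.58 ± 1.85% at stage 1 (n = 2) and 4.81 ± 0.607% at stage 2 (n = 3). It read 4.13, 2.21 and 6.3 TPM at stage 24 and 0.642, 0.321 and 1.67 at stage 40, a change of -2.42 ± 0.47 (5.35-fold, edgeR quasi-likelihood adjusted p = 2.37e-05). The 6 leukocyte markers summed to 22.9 to 29.2 TPM at stage 24 and 77.4 to 108 TPM at stage 40, and their part in the level of PSMB8 was not tested. PSMB11, the beta subunit of the thymus cortex in mammals, was listed at 0 in most libraries and reached at most 2.08 TPM, at stage 9.

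The 6 ATPases PSMC1 to PSMC6 form the ring that unfolds substrates and opens the gate. All 6 were called higher from stage 10 to 12 with TMM, by 0.45 to 1.19, against 20.3% of all tested genes. With library size alone PSMC3, PSMC4 and PSMC5 turned to -0.27, -0.38 and -0.40, the latter pair called lower. Only PSMC1 was called higher under all 3 scalings, against 7.62% of all tested genes. PSMC1 read 47.3, 45.1 and 43.8 TPM at stage 10 and 57.1, 59.6 and 64 at stage 12, with no overlap. The change was 1.19 ± 0.13 (2.28-fold, edgeR quasi-likelihood adjusted p = 8.51e-10), or 0.34 with library size alone. From stage 12 to 14, 5 of the 6 were called higher, against 27.4% of all tested genes. PSMC3 had the largest change of these, from 49.1 ± 2.58 to 80.4 ± 2.31 TPM (n = 3 each), or 0.99 ± 0.14 (1.98-fold, edgeR quasi-likelihood adjusted p = 1.36e-07).

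PSMC6 stood apart from the other ATPases in being higher in gastrulation than at either end of the course. PSMC6 read 70.8 and 71.2 TPM at stage 1, 107, 101 and 172 at stage 2, 228, 225 and 217 at stage 8, 351, 304 and 265 at stage 12, and 151, 158 and 175 at stage 40. From stage 1 to 2 it rose by 0.81 ± 0.18 (1.76-fold, edgeR quasi-likelihood adjusted p = 0.000696), with no overlap. With only the 2 stages in the fit that call was lost (0.74). From stage 2 to 8 the change was 0.48 ± 0.16 (1.39-fold, edgeR quasi-likelihood adjusted p = 0.0139), which was lost with DESeq2 size factors and without stage 2 replicate 1 or replicate 2 (0.42 and 0.35). PSMC4 was the member called higher from stage 8 to 9. It read 102, 88.8 and 97.2 TPM at stage 8 and 119.8, 114 and 128 at stage 9, a change of 0.35 ± 0.11 (1.28-fold, edgeR quasi-likelihood adjusted p = 0.0229) that was not called with library size alone, nor without stage 8 replicate 2 or 3 or stage 9 replicate 1 or 3 (0.30 to 0.37).

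The 11 other subunits of the regulatory particle include the scaffolds PSMD1 and PSMD2, the ubiquitin receptor PSMD4 and the deubiquitinase PSMD14. PSMD2 rose in cleavage, from 56.3, 57.1 and 91.3 TPM at stage 2 to 154, 151 and 145 at stage 8, a change of 0.79 ± 0.16 (1.73-fold, edgeR quasi-likelihood adjusted p = 0.000106). It was highest at stage 40 with 326, 288 and 323 TPM. PSMD6, a lid subunit, stood at 28.2 to 35.1 TPM at stage 2, 72.9 to 94.5 at stage 10 and 103 to 108 at stage 12. It rose from stage 10 to 12 by 1.17 ± 0.16 (2.25-fold, edgeR quasi-likelihood adjusted p = 8.54e-08). It was also the 1 member called higher from stage 9 to 10, by 0.55 ± 0.16 (1.47-fold, edgeR quasi-likelihood adjusted p = 0.0359) with TMM. This call was lost with library size alone (0.42) and without stage 9 replicate 1, stage 9 replicate 2 or stage 10 replicate 1 (0.46, 0.55 and 0.31).

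PSMD4 and PSMD1 rose from stage 12 to 14. PSMD4 read 187, 200.3 and 179 TPM at stage 12 and 265, 295 and 295 at stage 14, a change of 0.87 ± 0.13 (1.83-fold, edgeR quasi-likelihood adjusted p = 3.7e-07). It fell from 346, 339 and 389 TPM at stage 24 to 244, 254 and 249.7 at stage 40, by 0.75 ± 0.13 (1.68-fold, edgeR quasi-likelihood adjusted p = 2.32e-06). PSMD14 went the other way over the last step: it read 330.5 and 323 TPM at stage 1, 145, 129 and 120.4 at stage 16, 160.4, 153 and 204 at stage 24, and 331, 312 and 321 at stage 40. Its change from stage 24 to 40 was 0.67 ± 0.13 (1.59-fold, edgeR quasi-likelihood adjusted p = 3.23e-05). PSMD14 and PSMD10 were the members called higher in this step under all 3 scalings. With TMM the 11 subunits split there into 1 higher, 6 lower and 4 not called. Of all tested genes, 37.7% were called higher and 30.9% lower. Of the 6 lower, 1 was so under all 3 scalings, and PSMD3, PSMD7, PSMD11 and PSMD12 stood at 0.04 to 0.18 on the log2 scale with library size alone, not called. The call of PSMD7 was also lost with DESeq2 size factors and without stage 24 replicate 1 or 3 or stage 40 replicate 1 or 2 (-0.19 to -0.24).

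The assembly chaperones hold partly built particles together and leave before the proteasome is complete. Their summed level was 856 ± 42.5 TPM at stage 1 (n = 2), 823 ± 23.1 at stage 5, 630.1 ± 43.6 at stage 8, 235 ± 13.3 at stage 12, 169 ± 9.4 at stage 19 and 249 ± 7.88 at stage 40 (n = 3 each). From stage 10 to 12, 0 of the 7 were called higher and 2 lower, against 20.3% and 24.3% of all tested genes. In the same step 27 of the 30 core and regulatory subunits were called higher with TMM. Of them 7 were so under all 3 scalings, against 7.62% of all tested genes. The median log2 change in this step was 0.09 for the chaperones, 0.80 for the alpha subunits, 1.09 for the beta subunits, 0.74 for the ATPases and 0.47 for the other regulatory subunits. That difference between roles was not tested. It covers only chaperones with a PSM name. POMP, the maturation factor of the beta ring, is not among the 7. As given further below, POMP was called higher in this step with TMM, but not with library size alone.

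PSMD10, known as gankyrin, which assists the ATPase ring and also binds cell-cycle regulators, made up most of the chaperone sum in poly(A) RNA of stage 1, at a mean of 561 of 856 TPM. In total RNA of stage 1 it read 91.1 and 78.8 TPM of a mean sum of 316. In poly(A) RNA it read 538 and 583 TPM at stage 1, 507, 553 and 435 at stage 2, 174, 244 and 260.3 at stage 8, 42, 58.5 and 45.8 at stage 9, and 2.86, 3.03 and 2.1 at stage 12. Stages 1 and 2 overlapped, and each later stage of these lay below all libraries of the one before. It fell by 1.51 ± 0.44 from stage 2 to 8 (2.85-fold, edgeR quasi-likelihood adjusted p = 0.00531), by 2.2 ± 0.46 from stage 8 to 9 (4.61-fold, edgeR quasi-likelihood adjusted p = 0.000459) and by 2.31 ± 0.6 from stage 10 to 12 (4.97-fold, edgeR quasi-likelihood adjusted p = 0.00155).

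Its level was higher again afterwards. PSMD10 read 10.5, 14 and 14.8 TPM at stage 14, a rise of 2.52 ± 0.64 from stage 12 (5.74-fold, edgeR quasi-likelihood adjusted p = 0.00111), and 69.7, 80.5 and 69.4 at stage 40 against 10.7, 34.4 and 39.3 at stage 24. The last step, 1.16 ± 0.46 (2.24-fold, edgeR quasi-likelihood adjusted p = 0.0256), lost its call without stage 24 replicate 1 (0.77) or stage 40 replicate 2 (1.07). At stages 10 and 11 the embryos differed: stage 10 replicate 1 read 6.6 TPM against 33.1 and 34.2 in the others, and stage 11 replicate 3 read 3.6 against 45.3. The same libraries were also the lowest of their stage for PSME3, PSMF1, PSMC3IP and PSMD9.

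Of the 7 chaperones, 6 had their lowest mean at stage 12 or later, and PSMG2 had its lowest at stage 3. The share of all genes lowest at those stages is not given here. PSMD9 read 22 and 26.1 TPM at stage 1, 37.2, 29.1 and 56.1 at stage 2, 71.9, 66 and 69 at stage 8, 36.1, 52.1 and 44.7 at stage 10 and 16.1, 19.8 and 14.6 at stage 12. Its changes were 0.75 ± 0.18 from stage 1 to 2 (1.68-fold, edgeR quasi-likelihood adjusted p = 0.00156) and -0.59 ± 0.16 from stage 10 to 12 (1.51-fold, edgeR quasi-likelihood adjusted p = 0.00222), followed by 0.87 ± 0.16 to stage 14 (1.83-fold, edgeR quasi-likelihood adjusted p = 2.38e-05). The call from stage 1 to 2 was lost with only the 2 stages in the fit (0.67). PSMG2, which pairs with PSMG1 to build the alpha ring, read 17.8, 13.3 and 43 TPM at stage 2 and 64.7, 56.9 and 67.3 at stage 8, a change of 1.03 ± 0.23 (2.05-fold, edgeR quasi-likelihood adjusted p = 0.000462). PSMG2 lost this call with only the 2 stages in the fit (0.98). Its partner PSMG1 went down in that step, from 179, 208 and 188 TPM to 164, 141 and 159.9, by 0.67 ± 0.14 (1.59-fold, edgeR quasi-likelihood adjusted p = 0.000154). PSMG1 was also called lower from stage 12 to 14, by 0.46 ± 0.14 (1.38-fold, edgeR quasi-likelihood adjusted p = 0.00585), a call lost with DESeq2 size factors (-0.30) and without stage 14 replicate 3 (-0.35). PSMD5 was highest at stage 7, at 76.3 TPM, and lowest at stage 40, at 8.87 TPM, with a fall of 1.23 ± 0.23 from stage 24 to 40 (2.35-fold, edgeR quasi-likelihood adjusted p = 1.41e-05). PSMG3 ranged from 12.6 to 34.9 TPM and PSMG4 from 2.91 to 10.7 TPM in their stage means.

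The activators are alternative caps of the core particle. PSME3, a nuclear activator that needs no ubiquitin, held most of their summed level, 86.6 ± 0.0506% at stage 1 (n = 2) and 69 ± 2.18% at stage 12 (n = 3). It read 1061 and 1164 TPM at stage 1, 813, 781 and 843 at stage 8, 396, 627 and 602 at stage 10, 222, 229.7 and 216 at stage 12, and 387, 329 and 322 at stage 40. From stage 10 to 12, with no overlap, it fell by 0.47 ± 0.14 (1.39-fold, edgeR quasi-likelihood adjusted p = 0.0051), or by 1.35 with library size alone. PSME1 and PSME2, the partners of the interferon-inducible activator, parted over the course. PSME1 rose from stage 12 to 14 by 0.76 ± 0.16 (1.7-fold, edgeR quasi-likelihood adjusted p = 0.000129), from 24.8, 30.8 and 27.7 TPM to 36.2, 42.8 and 37.5. PSME2 fell from stage 2 to 8 by 0.87 ± 0.14 (1.83-fold, edgeR quasi-likelihood adjusted p = 6.83e-06), from 87.9, 99.3 and 83.2 TPM to 67.6, 59.4 and 63.5. PSME4, which in mammals caps core particles in the testis and at sites of DNA damage, read 28.8 and 28.7 TPM at stage 1 and 14.2, 18.5 and 13.3 at stage 2, a fall of 0.89 ± 0.24 (1.86-fold, edgeR quasi-likelihood adjusted p = 0.00333). It was lowest at stage 24 at 5.17 TPM. Its change from stage 19 to 24, -0.60 ± 0.22 (1.52-fold, edgeR quasi-likelihood adjusted p = 0.043), was called with TMM alone of the 3 scalings and lost without stage 19 replicate 2 or 3 or stage 24 replicate 2 or 3 (-0.42 to -0.65).

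PSMF1, an inhibitor of the core particle, was lowest at stage 14, when core subunits were already high. It read 80, 79.3 and 70 TPM at stage 2, 30.6, 56.9 and 45.3 at stage 10, 15.2, 19.7 and 14.7 at stage 12, 15.3, 10.1 and 12.3 at stage 14, and 57.6, 48 and 51.8 at stage 40. From stage 10 to 12 it fell by 0.61 ± 0.18 (1.53-fold, edgeR quasi-likelihood adjusted p = 0.00548), a call lost without stage 10 replicate 2 (-0.43). From stage 14 to 19 it rose by 0.65 ± 0.19 (1.56-fold, edgeR quasi-likelihood adjusted p = 0.0148) and from stage 19 to 24 by 0.62 ± 0.18 (1.53-fold, edgeR quasi-likelihood adjusted p = 0.0117). The former call was lost without stage 14 replicate 2 or stage 19 replicate 3 (0.46 and 0.57), and the latter without stage 19 replicate 2 or stage 24 replicate 3 (0.54 and 0.55).

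PSMC3IP, the recombination cofactor, shared the fall at gastrulation with PSMD10 and PSMF1. It read 38.7 to 41.7 TPM at stage 6, 36.6, 38.3 and 41 at stage 8, 27.4, 25.9 and 24.1 at stage 9, 11.7, 22.6 and 20.6 at stage 10, 5.05, 5.68 and 4.26 at stage 12, 7.76, 10.9 and 11.1 at stage 19, 10.9, 10.8 and 16.4 at stage 24, and 8.23, 6.06 and 7.99 at stage 40. It fell by 1.05 ± 0.17 from stage 10 to 12 (2.07-fold, edgeR quasi-likelihood adjusted p = 3.35e-06), rose by 0.99 ± 0.18 from stage 14 to 19 (1.99-fold, edgeR quasi-likelihood adjusted p = 0.000156) and fell by 1 ± 0.17 from stage 24 to 40 (2-fold, edgeR quasi-likelihood adjusted p = 3.72e-06). Its fall from stage 8 to 9, 0.56 ± 0.17 (1.47-fold, edgeR quasi-likelihood adjusted p = 0.0151), was not called with library size alone, nor without stage 8 replicate 3 or stage 9 replicate 2 or 3 (-0.51 to -0.54).

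At the first division the poly(A) and the total RNA libraries were fitted apart, with unlike numbers of libraries. The poly(A) libraries gave 7 members higher and 9 lower in the fit of all 49 libraries. With only the 2 stages in the poly(A) fit there were 0 higher and 1 lower, and the share of all genes called in that fit is not given here. The total RNA fit held 5 libraries, so its counts are not like for like with those of the full poly(A) fit. In total RNA, where 11419 genes were tested and 1.44% of all genes were called higher and 0.543% lower, 0 members were called in either direction (edgeR quasi-likelihood test). At an unadjusted p under 0.05 there were 1 higher and 9 lower, where 1303 of the 11419 genes were higher. The DESeq2 Wald test called 0 higher and 1 lower. The share of all genes lower at the unadjusted threshold, or called by the Wald test, is not given here, so these counts cannot be read against it. Without stage 2 replicate 2 of the total RNA libraries there were 1 higher and 4 lower.

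The members described next were picked by their calls in poly(A) RNA. The size of their medians there follows from that choice, so a smaller median in total RNA is no result by itself. The 7 members higher in poly(A) RNA had a median change of 0.58 there and -0.01 in total RNA, with 3 above 0 and 4 below. PSMD9 rose by 0.75 ± 0.18 in poly(A) RNA and in total RNA was at 42.7 and 42 TPM at stage 1 and 33.6, 34.1 and 33.4 at stage 2, a difference of -0.36 ± 0.09 that missed the threshold (edgeR quasi-likelihood adjusted p = 0.0733). PSMC6 was at 47.7 and 46.4 TPM in total RNA at stage 1 and 53.6, 44.6 and 56.5 at stage 2, a difference of 0.09 ± 0.12 against 0.81 ± 0.18 in poly(A) RNA. The 9 members lower in poly(A) RNA had a median of -0.47 there and -0.15 in total RNA, with 7 of 9 below 0 in both. All 45 tested members had a median of -0.17 in total RNA, and 10 of them lay above the all-gene median of -0.01. The 7 of 9 are thus no trait of the members called lower. The exceptions were PSMB5, at 0.17 ± 0.14 in total RNA, and PSME4, at 16.9 and 16.9 TPM in total RNA at stage 1 and 18.7, 20.3 and 18.6 at stage 2. The tables were made from different library kinds and were tested apart, and the difference between the kinds of library was not tested. A poly(A) library holds what poly(A) selection recovers, so that a change in it between these stages need not be one in the amount of transcript.

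**Figure D4:**
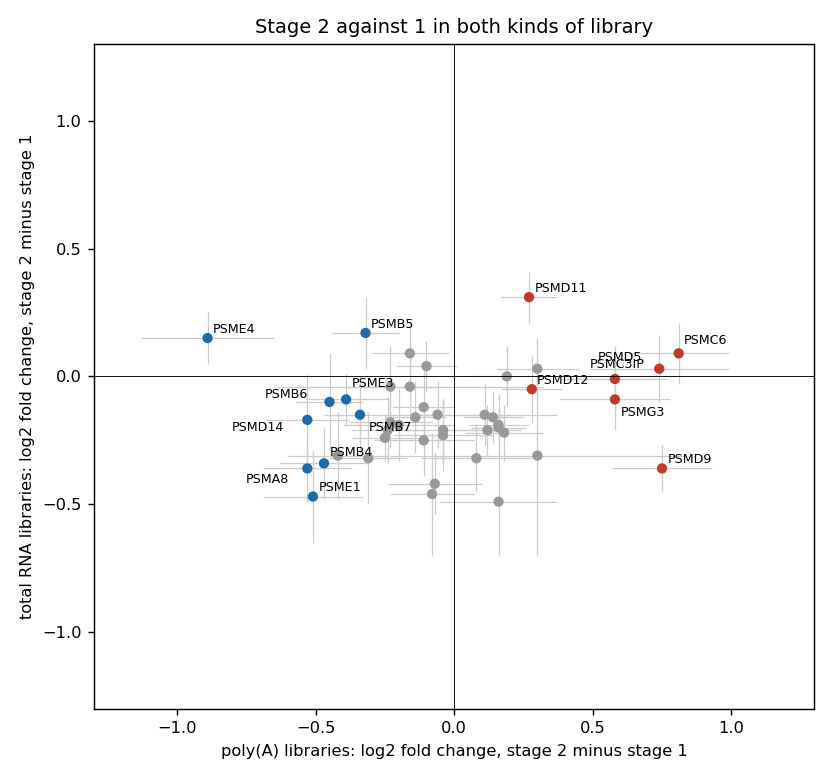
Log2 fold change from stage 1 to 2 in the poly(A) libraries (horizontal) and in the total RNA libraries (vertical) for the 45 tested members, with bars of 1 SE; red and blue points were called higher and lower in poly(A) RNA. Called members spread from -0.89 to 0.81 on the horizontal axis and from -0.47 to 0.31 on the vertical axis.

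Levels in the total RNA libraries of stage 1 differed from those in poly(A) RNA, whose table was scaled apart. The kinds of library also differ in their reads, single reads of 65 bases against paired reads of 101 bases. Reads may be shared between the paralogs PSMA7 and PSMA8 to an unlike extent in each. The part of these differences between the kinds in the values below was not tested. The core sum was 1294 ± 16.9 TPM in total RNA at stage 1 against 4117 ± 15 in poly(A) RNA, and the regulatory sum 1546 ± 14.2 against 2396 ± 25.5 (n = 2 each). PSMA8 held 29.8 ± 2.8% of the sum with PSMA7 in total RNA and 55 ± 1.38% in poly(A) RNA. PSMD10 read 91.1 and 78.8 TPM in total RNA and 538 and 583 TPM in poly(A) RNA.

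Genes that work with the proteasome were read from lists of the ubiquitin system, beside the same percentages of all genes as above. Of 10 measured proteasome genes that carry no PSM name, 3 were higher and 1 lower from stage 10 to 12, with a median log2 change of 0.15 where all genes had 0. SHFM1, a lid subunit, went from 328 ± 26.5 to 457 ± 19 TPM (1.26 ± 0.13, edgeR quasi-likelihood adjusted p = 5.18e-10). POMP, the maturation factor of the beta ring, went from 28.4 ± 0.899 to 34.6 ± 0.571 TPM (1.08 ± 0.13, edgeR quasi-likelihood adjusted p = 9.81e-09). POMP was not called with library size alone. ADRM1, a ubiquitin receptor, fell from stage 12 to 14 by 1.06 ± 0.16 (edgeR quasi-likelihood adjusted p = 5.55e-07) and rose by 0.67 ± 0.16 to stage 19 (edgeR quasi-likelihood adjusted p = 0.0027). From stage 24 to 40 AKIRIN2, which carries proteasomes into the nucleus, fell by 2.18 ± 0.17 (edgeR quasi-likelihood adjusted p = 6.02e-14).

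NFE2L1, the transcription factor that raises proteasome genes when the proteasome is impaired in mammals, fell from stage 10 to 12 and rose from stage 12 to 14. It went from 35.2 ± 12.4 TPM at stage 10 to 8.31 ± 0.628 at stage 12 (-1.26 ± 0.17, edgeR quasi-likelihood adjusted p = 4.86e-08) and rose to 12.9 ± 0.636 at stage 14 (0.9 ± 0.17, edgeR quasi-likelihood adjusted p = 2.32e-05). Of the 8 measured genes of its pathway, 1 was higher and 4 lower from stage 10 to 12 (median -0.52). Of 6 genes for ubiquitin and its activation, 4 were higher and 0 lower in that step (median 1.26), with 3 under all 3 scalings. UBB, a polyubiquitin gene, stood at 349.7 ± 61.1 TPM at stage 8 and at 868 ± 30.8 at stage 9 (1.33 ± 0.18, edgeR quasi-likelihood adjusted p = 8.98e-07). It rose again from 1163 ± 191 at stage 10 to 1866 ± 151 at stage 12 (1.46 ± 0.18, edgeR quasi-likelihood adjusted p = 2.32e-08). UBA1, the main ubiquitin-activating enzyme, rose from stage 12 to 14 by 1.8 ± 0.15 (edgeR quasi-likelihood adjusted p = 1.84e-12).

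The remaining lists are given by their counts and median log2 changes, where the median over all genes was 0 from stage 10 to 12 and 12 to 14, and 0.12 from stage 24 to 40. Of 8 subunits of the chaperonin CCT, another large cytosolic complex, 3 were higher and 1 lower from stage 10 to 12 (median 0.31), and 7 higher and 0 lower from stage 12 to 14 (0.81). From stage 24 to 40 the chaperonin had 5 higher and 0 lower (0.48), where the proteasome members had 2 higher and 22 lower. Of 15 genes of the anaphase-promoting complex, which hands mitotic proteins to the proteasome, 2 were higher and 5 lower from stage 10 to 12 (-0.20) and 1 higher and 7 lower from stage 12 to 14 (-0.37). Of 25 deubiquitinases, 6 were higher and 7 lower from stage 10 to 12 (0.14), and 3 higher and 16 lower from stage 12 to 14 (-0.43). Of 31 tested E2 ubiquitin-conjugating enzymes, 14 were higher and 9 lower from stage 10 to 12 (0.17). Of 21 genes of the cullin ligase core, 7 were higher and 3 lower in that step (0.11), and of 15 genes of VCP and its shuttle factors, 6 were higher and 2 lower (0.31). Of 15 tested genes of antigen processing and interferon, 7 were higher and 4 lower from stage 24 to 40 (0.69). Most of the higher calls from stage 10 to 12 were not held under all 3 scalings, where 1 E2 enzyme was higher and 9 lower, 2 cullin core genes higher and 3 lower, and 0 chaperonin subunits higher and 1 lower. For the anaphase-promoting complex this was 0 and 5, for the deubiquitinases 0 and 7, and for VCP and its shuttle factors 0 and 2. From stage 12 to 14, 5 chaperonin subunits were higher and 0 lower under all 3, 0 and 4 genes of the anaphase-promoting complex, and 0 and 11 deubiquitinases. From stage 24 to 40 the chaperonin kept its counts of 5 and 0, and antigen processing and interferon had 7 higher and 0 lower. The other counts are with TMM, and no difference between a list and the members was tested.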

How the data were processed

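Poly(A) libraries of 49 single embryos and 5 total RNA libraries were read from tables deposited by the authors, which hold estimated counts per gene and TPM per gene (a share among all transcripts that allows for length) for each library. RSEM 1.1.6 and Bowtie 0.12.1 appear among the tools of the submitters' processing notes. The sources used here do not give the reference. Per the labels' protocols, poly(A) libraries were paired reads of 101 bases and total RNA libraries single reads of 65 bases. Depth, 12048056 to 44855465 estimated counts for poly(A) RNA, limits the precision of low genes.

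Estimated counts were rounded to whole numbers. Genes were filtered with filterByExpr, which left 14437 genes (poly(A)) and 11419 genes (total RNA), and scaled by TMM. All stages entered 1 edgeR quasi-likelihood fit (edgeR 4.0.16 in R 4.3.3), and p-values were adjusted by Benjamini-Hochberg over all genes tested, with a threshold of 0.05. The fits were tested on simulated data in which few genes changed, as many up as down. Such data cannot test the scaling where many genes change between stages. The tests set each change against the spread between libraries of the same stage, estimated over all stages in the fit. The clutch of each embryo is not given, so the spread between clutches cannot be judged. The 51 pairs of libraries of 1 stage and kind differed by at least 5.86 in chi-square per degree of freedom, so none was a copy of another. This cannot show whether 2 libraries were made from the same embryo. TPM served for levels only.

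Alternatives were DESeq2 1.42.0 size factors, library size alone, the DESeq2 Wald test, no filter, only the 2 stages compared, a replicate block, and fits that leave out 1 library at a time, with a trended dispersion on a coarser grid. Full statistics were given for the 2 largest increases and the 2 largest decreases called in each step with a mean of at least 5 TPM in the higher stage, for members that depart from others of their role, and for up to 2 genes of each other list by smallest adjusted p. The members and lists were chosen with earlier results of these data known.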

Additional observations from a re-analysis of the deposited data

How the results depend on the processing

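Counts of members are given here as higher and lower where a setting moved them by over 1.5 times. Of the named genes, PSMA8 from stage 10 to 12 turned with library size alone, to -0.48, and so did PSMB3, PSMB6, PSMB7, PSMC3, PSMC4 and PSMC5 (-0.17, -0.06, -0.35, -0.27, -0.38 and -0.40). From stage 24 to 40 PSMD3, PSMD7, PSMD11 and PSMD12 turned with library size alone, to 0.04, 0.18, 0.05 and 0.06. With DESeq2 size factors 2 were higher from stage 1 to 2, 2 higher from stage 2 to 8, 4 higher from stage 8 to 9, 0 lower from stage 12 to 14, 14 higher from stage 14 to 19, 1 lower from stage 19 to 24 and 4 higher from stage 24 to 40. With library size alone, in the same order of steps, there were 3 higher, 12 higher and 8 lower, 0 higher and 1 lower, 0 higher from stage 9 to 10, 7 higher and 24 lower from stage 10 to 12, 16 higher and 10 lower, 4 higher and 1 lower from stage 19 to 24, and 11 higher and 9 lower from stage 24 to 40. The DESeq2 Wald test gave 14 lower from stage 1 to 2, 3 higher from 2 to 8, 6 higher from 8 to 9, 3 higher and 1 lower from 9 to 10, 0 lower from 12 to 14, 17 higher from 14 to 19, 1 lower from 19 to 24, 4 higher from 24 to 40 and 1 lower in total RNA. With only the 2 stages in the fit there were 0 higher and 1 lower from stage 1 to 2, 1 higher from 2 to 8, 10 higher from 8 to 9, 0 higher from 9 to 10, 3 higher from 14 to 19, and 1 higher and 1 lower from 19 to 24, where fewer libraries enter the estimate of the spread. Without a filter on low counts 8 instead of 9 were lower from stage 1 to 2 and the other counts stayed equal. Core sums in TPM divided by the TMM factor were 3442, 2107, 2557, 6190.3, 9076, 8753 and 5518 at stages 1, 8, 10, 12, 14, 24 and 40.

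With each library left out in turn the counts higher and lower ranged from 2 to 7 and 2 to 12 from stage 1 to 2, 3 to 8 and 15 to 22 from 2 to 8, 0 to 1 and 1 to 3 from 8 to 9, 0 to 3 and 0 to 0 from 9 to 10, 28 to 30 and 4 to 5 from 10 to 12, 20 to 27 and 0 to 2 from 12 to 14, 3 to 7 and 0 to 1 from 14 to 19, 0 to 3 and 1 to 2 from 19 to 24, 1 to 3 and 21 to 23 from 24 to 40, and 0 to 1 and 0 to 4 in total RNA. The 2 lower from stage 12 to 14 became 1 or 0 without stage 12 replicate 1 or 3 or stage 14 replicate 2 or 3, the 2 higher from stage 24 to 40 became 1 without stage 24 replicate 1 or stage 40 replicate 2, and the 1 higher from stage 9 to 10 became 3 without stage 9 replicate 3. Of 487 values of named genes with a library left out, 67 lost the call and 0 turned, and of 498 under the other settings, 37 lost it and 11 turned; the cause was not tested. A stage with 1 library left is assumed to vary like the others.

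Replicate numbers are shared by number only: over 26 pairs the correlation of deviations from the stage means ran from -0.13 to 0.1, and in 0 of 9 steps did every pair pass 0.1. With a replicate block the counts were 6 and 9 from stage 1 to 2, 6 and 22 from 2 to 8, 1 and 3 from 8 to 9, 1 and 0 from 9 to 10, 30 and 5 from 10 to 12, 25 and 2 from 12 to 14, 5 and 0 from 14 to 19, 2 and 2 from 19 to 24, and 2 and 22 from 24 to 40. No paired fit was made for the total RNA libraries, since the labels tie the numbers of their columns to no embryo.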
